A study of Arabidopsis thaliana with 6 samples.

Results

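The 7 genes described here encode defence peptides and related proteins of Arabidopsis thaliana: the thionin gene THI2.2, the defensin genes PDF2.1 and PDF1.2, the CAP family genes AT4G33720, AT2G19970 and PR1, and the transcription factor gene WRKY53. They are 7 of 13356 genes that the platform annotation pairs with a probe set of their own, except that PR1 (AT2G14610) was read from probe set 266385_at, for which that annotation lists no gene and whose gene was given with the selection rule. The genes were chosen by their measured TOC1-ox minus WT differences on these arrays, so their values are given as a description without a test. Each of the other 6 had 1 single-gene probe set, and all 7 stayed in the analysis whatever their level.

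Total RNA from seedlings of ecotype Col-0 was hybridised to 6 Affymetrix arrays. The 3 TOC1-ox arrays hold seedlings that overexpress TOC1, an evening component of the circadian clock, and the 3 WT arrays hold wild-type seedlings. In both groups the seedlings were 12 days old, had been kept on MS3 medium under 12 h of light and 12 h of darkness per day, and were collected at zeitgeber time 15, in the dark. The series calls the samples of a group biological replicates, and the labels name neither the promoter nor the line behind TOC1-ox. The comparison asks which transcripts differ when TOC1 is raised. TOC1 itself could not be read as a check of the labels, since no probe set is paired with it by name.

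Plants carry a layer of innate immunity that ends in secreted proteins. Thionins and plant defensins are small cysteine-rich peptides that act on microbial membranes, and PR-1 proteins of the CAP family are secreted during infection. In Arabidopsis leaves PR1 is the classical marker of the salicylate pathway and PDF1.2 that of the jasmonate and ethylene pathways, and these pathways often oppose each other. WRKY factors bind W-box sequences in the promoters of defence genes, and WRKY53 is also known as a regulator of leaf senescence.

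Of the TOC1-ox arrays, replicate 3 stood apart from the other two. Over 22746 probe sets, themselves no independent replicates, r was 0.996 between TOC1-ox replicates 1 and 2, 0.977 and 0.978 between each of these and replicate 3, and 0.989 to 0.994 among the WT arrays. The median of 24 labelling spike-in probe sets was 7.01 on TOC1-ox replicate 3 and 7.59 on WT replicate 3, against 2.81 to 4.84 on the other arrays, so the differences of the 7 genes are also given for the arrays numbered 3 and for those numbered 1 and 2. Values are on the deposited log2 scale, where 36.5% of all values lay under 4. GCRMA, which made them, draws dim probe sets together there, so a difference that starts or ends under 4 has no well-defined fold.

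The 7 genes fell into 3 kinds. THI2.2 and PDF2.1 were lower on every TOC1-ox array than on every WT array. AT4G33720, AT2G19970, PR1 and WRKY53 were higher on every TOC1-ox array than on every WT array. PDF1.2 was neither, since its groups overlapped. Over all 22746 probe sets, the groups did not overlap at 20.1%, with 9.27% higher and 10.8% lower in TOC1-ox, but the choice of the genes used this contrast and nothing is read from their 6 of 7.

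**Figure D1:**
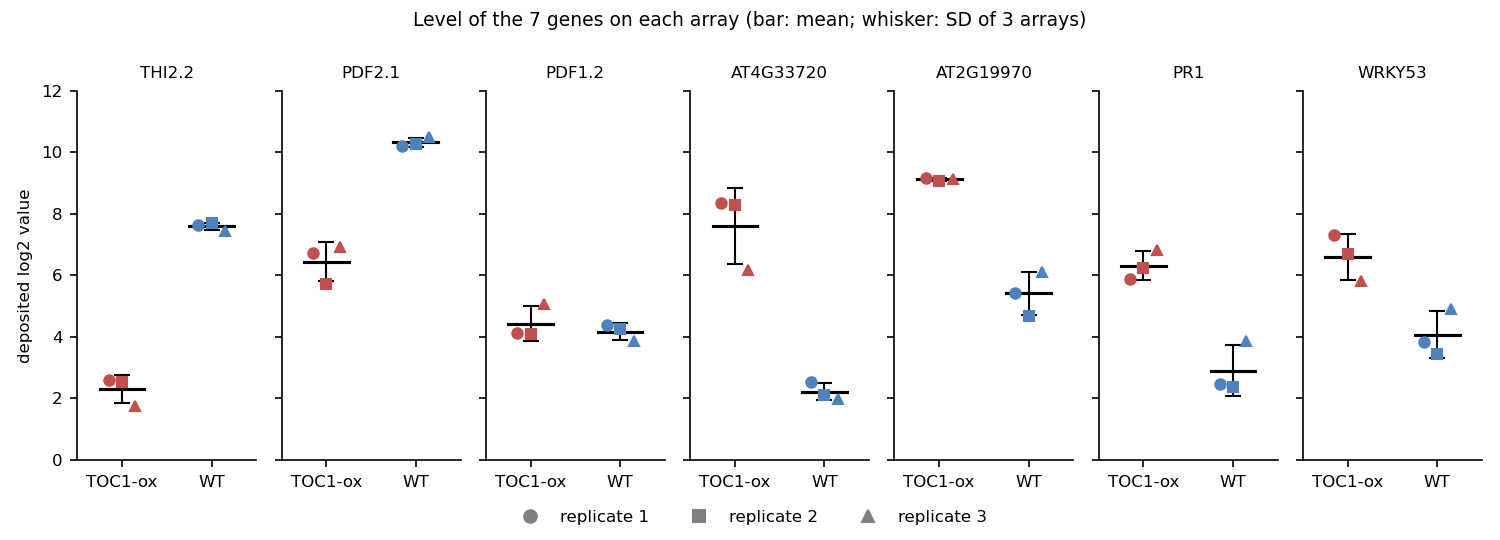
Deposited log2 value (vertical axis) of each of the 7 genes on the 3 TOC1-ox arrays (red, left) and the 3 WT arrays (blue, right), with the mean as a bar, the SD over 3 arrays as a whisker and the replicate number as the symbol. THI2.2 and PDF2.1 are lower and AT4G33720, AT2G19970, PR1 and WRKY53 higher on all TOC1-ox arrays, while PDF1.2 overlaps.

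Among the peptide genes, the thionin THI2.2 had log2 values of 2.59, 2.55 and 1.77 in TOC1-ox replicates 1 to 3, against 7.62, 7.70 and 7.46 in the WT replicates. All 3 TOC1-ox values lay at the bottom of the scale, and the nearest values of the groups were 4.87 apart on the log2 scale. The WT arrays were closely alike, with an SD of 0.12 (n = 3), against a median SD of 0.154 over all probe sets in WT. The defensin PDF2.1 had 6.71, 5.72 and 6.91 in TOC1-ox replicates 1 to 3, against 10.21, 10.27 and 10.49 in the WT replicates. Its transcript remained well above the bottom of the scale in TOC1-ox, so a fold can be given: the difference of means was -3.88, or 14.7-fold, with SDs of 0.63 in TOC1-ox and 0.15 in WT (n = 3 each). In seedling RNA, fewer cells that make a transcript and less of it per cell cannot be told apart.

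PDF1.2, the defensin used as a marker of jasmonate and ethylene signalling, had 4.12, 4.08 and 5.08 in TOC1-ox replicates 1 to 3, against 4.38, 4.27 and 3.86 in the WT replicates. TOC1-ox replicate 3 was the highest of the 6 arrays and WT replicate 3 the lowest, and the other 4 lay between them. Its mean difference was 0.26, smaller than the SD of 0.56 among the TOC1-ox arrays and similar to that of 0.27 among the WT arrays. PDF1.2 belongs to a group of closely related defensin genes, and whether its probe set also reads PDF1.2c, the next locus, was not tested. Its relative PDF1.2b lay at the bottom of the scale on every array, at 2.85 to 2.87 in TOC1-ox and 2.80 to 3.02 in WT.

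Among the CAP family genes, AT4G33720 had log2 values of 8.34, 8.29 and 6.19 in TOC1-ox replicates 1 to 3, against 2.54, 2.12 and 2.00 in the WT replicates. It was at the bottom of the scale on all WT arrays and clearly above it on all TOC1-ox arrays, and TOC1-ox replicate 3 stood 2.12 below the mean of the other two. AT2G19970 had 9.18, 9.08 and 9.12 in TOC1-ox replicates 1 to 3, against 5.43, 4.69 and 6.11 in the WT replicates. Here the spread lay in the WT arrays, with SDs of 0.05 in TOC1-ox and 0.71 in WT, and the difference of means was 3.71, or 13.1-fold. PR1, the salicylate marker, had 5.88, 6.23 and 6.83 in TOC1-ox replicates 1 to 3, against 2.48, 2.36 and 3.86 in the WT replicates. The WT values of PR1 all lay under 4, so no fold is given for it. WT replicate 3 was the highest WT array for both AT2G19970 and PR1, and even so the nearest values of the groups were 2.97 and 2.02 apart.

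WRKY53 had 7.31, 6.69 and 5.83 in TOC1-ox replicates 1 to 3, against 3.84, 3.45 and 4.92 in the WT replicates. Its groups came closest of the 6 genes without overlap, with TOC1-ox replicate 3 only 0.91 above WT replicate 3. The SDs were 0.75 in TOC1-ox and 0.76 in WT, against medians over all probe sets of 0.167 and 0.154 and 90th percentiles of 0.609 and 0.451.

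Several differences varied with the arrays read. WRKY53 differed by 3.35 among the arrays numbered 1 and 2 and by 0.91 between the arrays numbered 3, with TOC1-ox replicate 3 at -1.17 and WT replicate 3 at 1.27 relative to the mean of replicates 1 and 2 of the same group. AT4G33720 differed by 5.99 and 4.19, AT2G19970 by 4.07 and 3.01, and PR1 by 3.63 and 2.97, each smaller between the arrays numbered 3. THI2.2 differed by -5.09 among the arrays numbered 1 and 2 and by -5.69 between those numbered 3, and PDF2.1 by -4.02 and -3.59. The sign of PDF1.2 turned, from -0.22 among the arrays numbered 1 and 2 to 1.22 between those numbered 3. With 1 array per group, the arrays numbered 3 allow no error of their own.

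**Figure D2:**
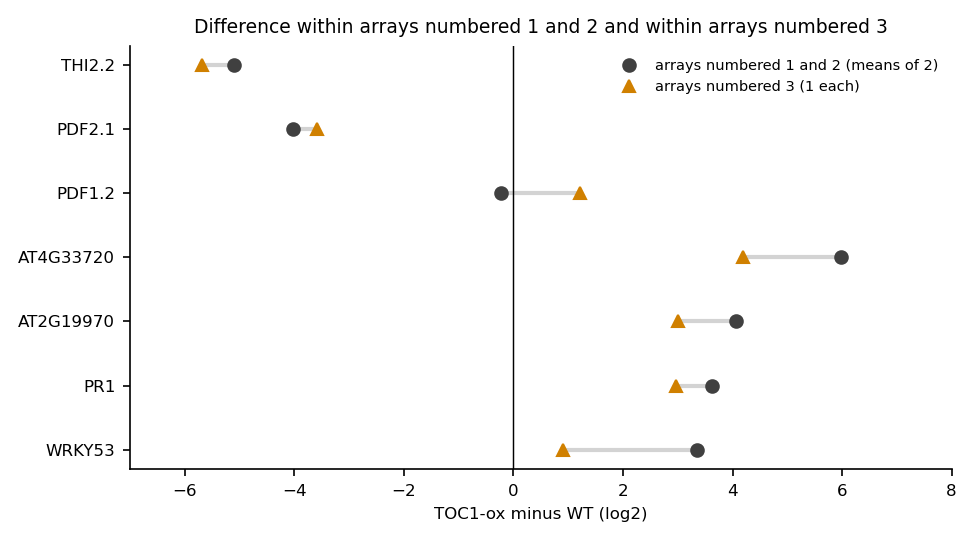
TOC1-ox minus WT on the log2 scale (horizontal axis) for each gene, among the arrays numbered 1 and 2 (grey circles, means of 2 arrays per group) and between the arrays numbered 3 (orange triangles, 1 array per group). WRKY53 is 3.35 and 0.91, and PDF1.2 changes sign.

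The 4 genes that were higher did not share 1 pattern of spread. TOC1-ox replicate 3 was below the mean of replicates 1 and 2 for AT4G33720 and WRKY53, level with it for AT2G19970 at -0.01, and above it for PR1 by 0.77. WT replicate 3 was above its replicates 1 and 2 by 1.44 for PR1, 1.27 for WRKY53 and 1.05 for AT2G19970. Only 0.849%, 1.25% and 2.46% of all probe sets moved further than these 3 genes on that array, where the median size was 0.159. For AT4G33720 on TOC1-ox replicate 3 the share was 1.35%, with a median size of 0.204 over all probe sets on that array.

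Likeness of profiles was measured as the root mean square difference over the 6 arrays after each probe set was centred on its own mean, in log2 units. Among the 7 genes the closest pair was AT2G19970 and PR1, at 0.39, followed by AT2G19970 and WRKY53 at 0.73. The 2 genes that were lower, THI2.2 and PDF2.1, lay 0.92 apart. Among 7850 other single-gene probe sets with a mean of at least 4, the 2 nearest to AT2G19970 were AT1G43910, a gene for a P-loop NTPase-like protein, at 0.26 and PR-1-LIKE at 0.29. The same 2 genes were nearest to PR1, with PR-1-LIKE at 0.38 and AT1G43910 at 0.45. AT1G43910 had 7.98, 7.47 and 7.93 in TOC1-ox replicates 1 to 3, against 3.80 to 4.46 in WT, where replicate 3 was the highest.

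The other genes had different nearest profiles. WRKY53 was most like AT5G63130 at 0.17 and AT1G17830 at 0.24, and AT5G63130 also had its lowest TOC1-ox value, 6.67, and its highest WT value, 5.67, on the arrays numbered 3. AT4G33720 was most like AT1G12030 and the beta-glucosidase gene BGLU28, both at 0.46. BGLU28 had 13.60, 13.55 and 11.10 in TOC1-ox replicates 1 to 3, against 7.76, 7.03 and 8.27 in the WT replicates, so its TOC1-ox replicate 3 was low as well. PDF1.2 was most like AT1G52510 and AT5G04840, both at 0.11, each with its highest value on TOC1-ox replicate 3 and its lowest on WT replicate 3. PDF2.1 was most like the type 2C protein phosphatase gene AT3G16800 at 0.34 and the RING-finger gene AT5G47610 at 0.37. THI2.2 was most like AT2G28490, a cupin gene, at 0.62 and AT3G17520, of the late embryogenesis abundant family, at 0.68. These distances describe 6 arrays and carry no test. The nearest profiles were chosen on the same arrays, so their likeness on the arrays numbered 3 follows from that choice.

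The rest of the defence system was read from lists of known genes and from the families of the 7, with the 7 left out. Of 249 genes, 27 could be measured under a name. A gene counts as measured here only where the annotation pairs a probe set with it alone. That annotation lists no gene for 8730 probe sets, and whether these hold other listed genes was not tested. Of the 27, 1 gene, PR-1-LIKE, rose in TOC1-ox and 0 fell (limma, adjusted p under 0.05 over 22746 probe sets). The background over all probe sets was 1.78%, with 1.08% higher and 0.703% lower. At an unadjusted p under 0.05 there were 5 higher and 2 lower of the 27, where over all probe sets 16.4% passed, 8.05% higher and 8.32% lower. The median difference of the 27 was -0.0038, beside -0.02 over all probe sets, and 11 of the 27 had both group means under 4. The count rests on the arrays used. Without TOC1-ox replicate 3 limma called 6 of the 27 higher and 1 lower, while over all probe sets the shares in that fit were also larger, at 7.05% higher and 5.94% lower. In the fits without TOC1-ox replicate 1 or 2 or WT replicate 1 or 2 it called 0 of the 27 higher. Those fits called few probe sets of any kind, with 27, 11, 35 and 5 of 22746 higher, in that order. Without WT replicate 1 it called 1 of the 27 lower, beside 30 of all probe sets.

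PR-1-LIKE (AT2G19990) was measured as a relative in the CAP family, in which PR-1-LIKE and PRB1 could be found by name and PRB1 was not paired with a probe set in the annotation used here. CAP genes listed by locus alone could not be found in this way, so PR-1-LIKE does not stand for the family. The neighbouring loci AT2G19980, AT4G33710 and AT4G33730, described below, differed by 0.04, -0.003 and 0.87, with overlapping groups. Whether they belong to the CAP family was not tested. PR-1-LIKE had log2 values of 7.10, 7.25 and 6.96 in TOC1-ox replicates 1 to 3, against 3.47, 3.41 and 4.37 in the WT replicates. All TOC1-ox values lay well above all WT values, and, as for PR1 and AT2G19970, WT replicate 3 was the highest of its group. The WT mean of PR-1-LIKE, 3.75, lay under 4, so no fold is given for it. PR-1-LIKE rose by 3.35 ± 0.29 (standard error, n = 3 each; limma, adjusted p = 0.0213). It passed in 11 of 16 fits, with an adjusted p of 0.000849 to 0.102. Among the fits with 1 array left out, the call ended without WT replicate 1 or 2 (limma, adjusted p = 0.087 and 0.0981) and without TOC1-ox replicate 1 or 2 (0.102 and 0.0992). In these fits PR-1-LIKE differed by 3.21, 3.18, 3.35 and 3.28, in that order. Over all probe sets the same fits called only 35, 5, 27 and 11 higher. Between the arrays numbered 3 the difference was 2.59.

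Of 86 other genes that bear a defensin name, 11 were measured, and 0 passed in either direction (limma; 2 higher and 1 lower at an unadjusted p under 0.05, against 8.05% and 8.32% of all probe sets). In 7 of the 11 both means lay under 4. PDF2.5 differed by 1.40 ± 0.32 and LCR68, also called PDF2.3, by 0.97 ± 0.15 (limma's standard error, 3 arrays per group; adjusted p = 0.119 and 0.0548 by limma). LCR68 had 12.51, 12.60 and 12.13 in TOC1-ox replicates 1 to 3, against 11.35, 11.40 and 11.57 in the WT replicates. PDF2.5 had 8.23, 7.80 and 7.06 in TOC1-ox replicates 1 to 3, against 6.41, 6.12 and 6.36 in the WT replicates. Both were higher on all TOC1-ox arrays, opposite in direction to PDF2.1. Both passed without TOC1-ox replicate 3 (limma, adjusted p = 0.0118 for PDF2.5 and 0.00746 for LCR68), where 7.05% of all probe sets were called higher. Over the 16 fits the adjusted p ran from 0.0084 to 0.327 for PDF2.5 and from 0.00302 to 0.201 for LCR68.

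THI2.1, the thionin known to respond to jasmonate, was the only relative of THI2.2 measured by name. It had 3.27, 3.26 and 2.88 in TOC1-ox replicates 1 to 3, against 2.99, 5.36 and 5.04 in the WT replicates. WT replicate 1 lay among the TOC1-ox values, and the difference of -1.32 ± 0.67 did not pass (standard error; limma, adjusted p = 0.433).

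Of 70 genes that bear a WRKY name, 6 were measured beside WRKY53, and 0 passed in either direction (limma; 2 higher and 0 lower at an unadjusted p under 0.05, against 8.05% and 8.32% of all probe sets). WRKY6, another factor known from senescence and defence, had 7.28, 7.13 and 6.94 in TOC1-ox replicates 1 to 3, against 6.32, 6.35 and 6.86 in the WT replicates. The difference was 0.60 ± 0.18, and that of WRKY47 was 0.46 ± 0.17 (limma's standard error, 3 arrays per group; adjusted p = 0.203 and 0.296 by limma). Both were higher on every TOC1-ox array. As for WRKY53, WRKY6 was closest between the arrays numbered 3, where it differed by 0.08. It passed in 2 of the 16 fits, that of the arrays numbered 1 and 2 (limma, adjusted p = 0.0322) and that with array weights (0.006), and the adjusted p reached 0.493.

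**Figure D3:**
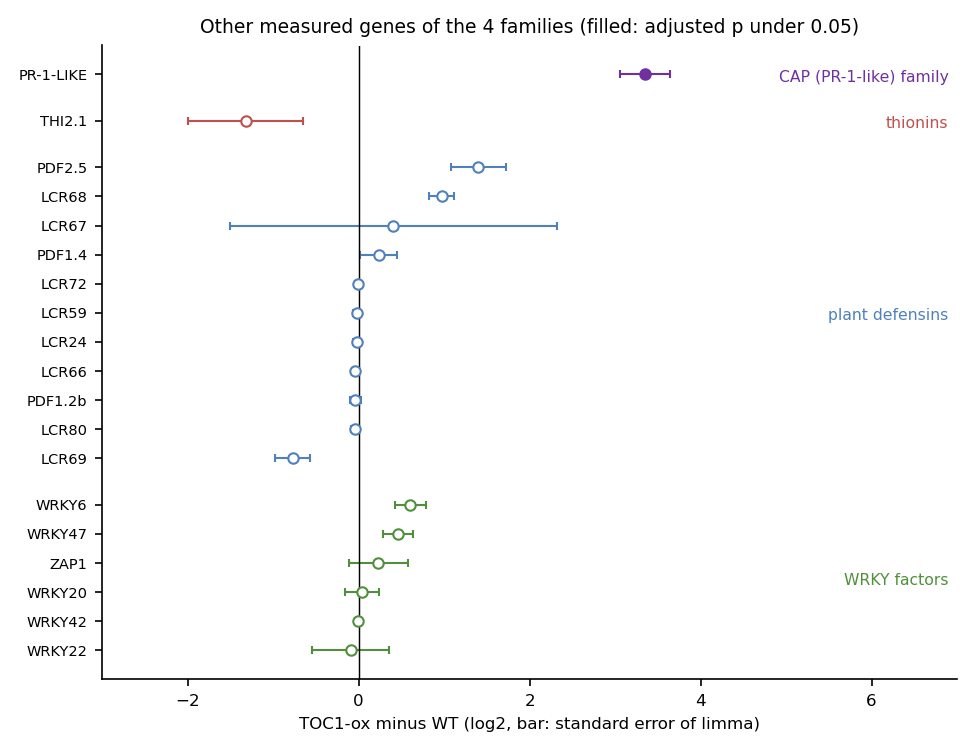
TOC1-ox minus WT on the log2 scale (horizontal axis) with limma's standard error, 3 arrays per group. The genes are the others that could be found by name among CAP genes, thionins, plant defensins and WRKY factors. CAP genes listed by locus alone are not shown, so PR-1-LIKE does not stand for that family. The filled point is PR-1-LIKE, which alone passed an adjusted p of 0.05, and LCR67 has the widest bar.

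The signalling lists could be read at few genes. Of 22 salicylate genes 2 were measured. SAG101, a lipase-like partner of the immune regulator EDS1, differed by 0.69 and GRX480, a glutaredoxin that binds TGA factors, by 1.01 (limma, adjusted p = 0.409 and 0.337). SAG101 had 4.72, 4.82 and 3.65 in TOC1-ox replicates 1 to 3, against 3.69 to 3.71 in WT, and GRX480 had 4.36, 4.11 and 2.84 in TOC1-ox replicates 1 to 3, against 2.70 to 2.82 in WT. In both genes TOC1-ox replicate 3 lay close to the WT values. Without TOC1-ox replicate 3 both passed (limma, adjusted p = 0.00386 and 0.00511, reaching 0.753 and 0.668 over all fits). That fit called 7.05% of all probe sets higher, against 1.08% with all arrays. PR1 did not share the drop of these 2 genes, as its highest value was on TOC1-ox replicate 3.

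Of 31 jasmonate and ethylene genes 3 were measured and 0 passed (limma, adjusted p under 0.05), against 1.78% of all probe sets. At an unadjusted p under 0.05 there were 0 as well, against 16.4% of all probe sets. So few genes cannot describe these pathways. The jasmonate factor MYC4 differed by 0.47 and the ethylene factor EIN3 by -0.13 (adjusted p = 0.746 and 0.795). MYC4 had 8.96, 8.88 and 7.38 in TOC1-ox replicates 1 to 3, against 7.85 to 8.06 in WT. It passed without TOC1-ox replicate 3 (limma, adjusted p = 0.00921, reaching 0.99993 over the 16 fits), where 7.05% of all probe sets were called higher. Of 17 genes of pattern-triggered signalling 2 were measured, again too few to describe a pathway. Here 0 passed by adjusted or unadjusted p (limma), beside the same shares of all probe sets. The receptor-like kinase BIK1 differed by -0.07 and the receptor EFR, with all 6 values at the bottom of the scale, by -0.01. None of the 8 camalexin and indole genes had a probe set of its own in the annotation used here. Whether the array holds probe sets for them was not tested.

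Senescence, which WRKY53 is known to promote, cannot be described here, since only 1 of its 11 listed genes was measured. SAG29, a sugar transporter gene of the SWEET family that is raised in ageing leaves, had 3.49, 3.49 and 3.50 in TOC1-ox replicates 1 to 3, against 4.81, 6.96 and 6.85 in the WT replicates. SAG29 was thus lower on every TOC1-ox array, as were 10.8% of all probe sets. Its TOC1-ox values lay under 4, so no fold is given. The difference of -2.71 ± 0.63 (standard error, n = 3 each) did not pass (limma, adjusted p = 0.123, from 0.00899 to 0.341 over the 16 fits). Without WT replicate 1 SAG29 passed (limma, adjusted p = 0.00899), in a fit that called 30 of 22746 probe sets lower.

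Gene order set some of these differences side by side. The 3 protein-coding loci on each side of each of the 7 genes were read after the values had been seen, as values only and by the order of loci in the TAIR10.1 assembly. Of 42 such loci, 25 had a single-gene probe set, and 23 of them differed by less than 1 on the log2 scale. The median of the 25 was -0.05, and the other two were PR-1-LIKE and AT5G44400, which stands 2 loci before PDF1.2 and differed by 1.39. AT2G19970 and PR-1-LIKE stand 2 loci apart on chromosome 2 and were both high in TOC1-ox. AT2G19980, the locus between them, lay at the bottom of the scale, at 2.22 to 2.38 in TOC1-ox and 2.19 to 2.26 in WT, and HBT, the locus after PR-1-LIKE, differed by -0.10.

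PDF2.1 lies among other defensin genes on chromosome 2. LCR68, the next locus, was higher in TOC1-ox by 0.97, while LCR69 (PDF2.2), 2 loci before PDF2.1, had 12.16, 12.37 and 12.77 in TOC1-ox replicates 1 to 3, against 12.98, 13.18 and 13.45 in the WT replicates. LCR69 was thus lower by 0.77 on the log2 scale, without overlap between the groups, but did not pass (limma, adjusted p = 0.16). It passed without TOC1-ox replicate 3 (limma, adjusted p = 0.039), where 5.94% of all probe sets were called lower. Over the 16 fits its adjusted p ran from 0.0115 to 0.392 by limma. LCR72, the locus after LCR68, stayed at the bottom of the scale with 2.30 to 2.32 in TOC1-ox and 2.28 to 2.34 in WT. None of these 3 neighbouring defensin genes passed with all arrays. AT4G33720 stands alone in size among its neighbours. AT4G33710 lay at 1.84 to 1.85 in TOC1-ox and 1.83 to 1.86 in WT, and AT4G33730 had 6.82, 6.78 and 5.04 in TOC1-ox replicates 1 to 3, against 5.09, 5.04 and 5.90 in the WT replicates, with TOC1-ox replicate 3 as low as WT.

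**Figure D4:**
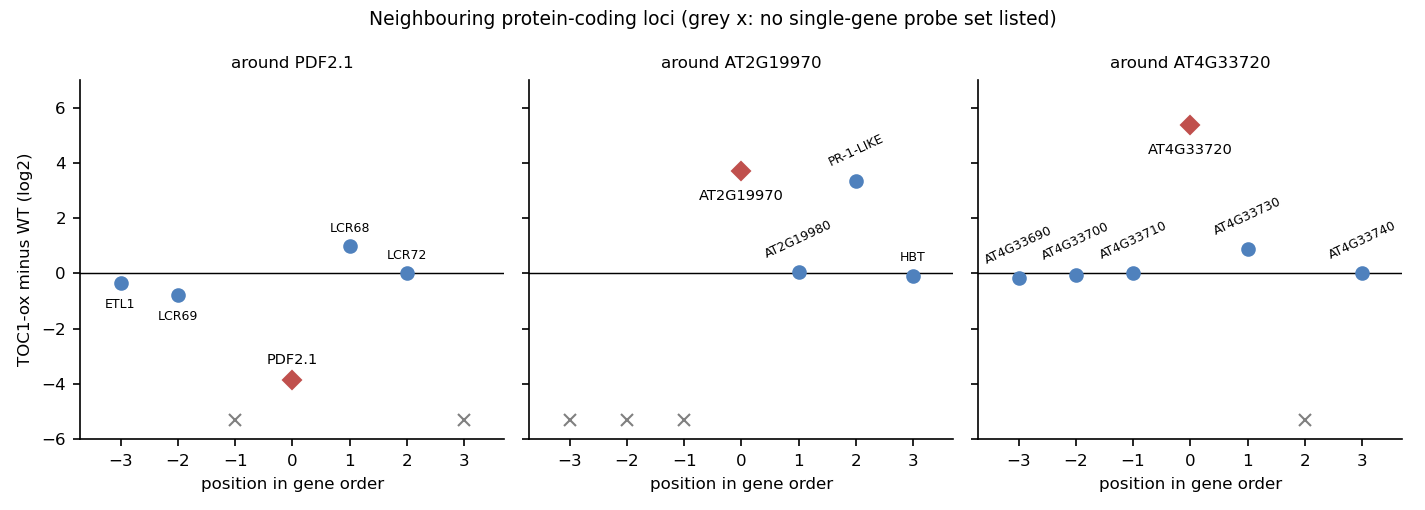
TOC1-ox minus WT on the log2 scale (vertical axis) for PDF2.1, AT2G19970 and AT4G33720 (red diamonds) and the 3 protein-coding loci on each side (blue circles), by position in gene order. Grey crosses mark loci without a listed single-gene probe set, and PR-1-LIKE is the neighbour with the largest difference, 3.35.

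The marker lists touch these results as follows. Of 7 root markers 3 were measured, with a mean log2 level of 9.43 to 9.96 in TOC1-ox and 8.84 to 9.38 in WT, and none lay near the bottom of the scale. The root-hair expansins EXPA7 and EXPA18 differed by 0.84 and 0.94 (limma, adjusted p = 0.129 and 0.266). EXPA7 passed without TOC1-ox replicate 3 (limma, adjusted p = 0.0386), where 7.05% of all probe sets were called higher. Over the 16 fits its adjusted p ran from 0.00693 to 0.36 by limma. PYK10, a beta-glucosidase gene of roots, differed by 0.04. Of 7 markers of green shoot tissue only RCA, the activase of Rubisco, was measured, at 13.74 to 14.67 in TOC1-ox and 13.14 to 14.07 in WT. None of 11 seed and embryo markers had a probe set of its own in the annotation used here. The part of tissue makeup in the differences of the 7 genes was not tested.

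The defensin LCR67, also called PDF1.1, split the arrays by number and not by genotype. It had 8.55, 7.56 and 3.21 in TOC1-ox replicates 1 to 3, against 7.91, 6.86 and 3.33 in the WT replicates, and was singled out after its values were seen. Relative to the mean of replicates 1 and 2, replicate 3 stood at -4.85 in TOC1-ox and -4.05 in WT, while the group means differed by 0.41 (limma, adjusted p = 0.968). Only 4 probe sets of 22746 were lower by at least 2 on both arrays numbered 3, and 6 were higher by as much. None of the 7 genes was among them.

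**Figure D5:**
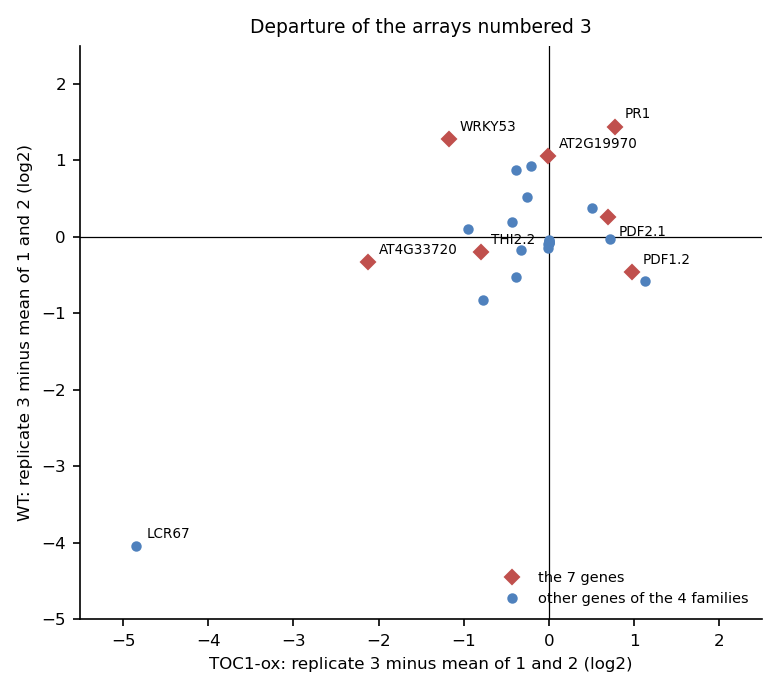
Departure of replicate 3 from the mean of replicates 1 and 2 in TOC1-ox (horizontal axis, log2) and in WT (vertical axis, log2). Red diamonds are the 7 genes, and blue circles the other genes of their families that were measured by name. LCR67 lies apart at -4.85 and -4.05, and WRKY53 was low on TOC1-ox replicate 3 and high on WT replicate 3.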

How the data were processed

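The deposited table holds log2 values of 22810 probe sets on 6 arrays, made by the authors with GCRMA; limma is also named, per the submitters' processing notes, without versions. The GCRMA method corrects background, normalizes by quantiles and summarises probes. Groups and replicate numbers came from sample titles. Control probe sets (64) were left out and 22746 tested with limma 3.58.1 in R 4.3.3 (lmFit, eBayes, two-sided, group as the only term, Benjamini-Hochberg over all of them, adjusted p under 0.05). Arrays have no read depth; their number limits the precision. The platform annotation, updated through a table of TAIR10.1, gave a single gene for 13513 probe sets, several for 503 and none for 8730; coordinates are left out because the array's build is unknown. A gene was its probe set with the highest mean. The 7 genes and all lists were chosen with earlier results of these data known. Named were the 7 genes, up to 4 called members of each list (or the 2 with the largest difference), and for each of the 7 genes the 2 nearest profiles; others named were chosen after their values were seen. Thionin and defensin names were matched as whole words. The test was checked on simulated data. The labels do not say whether same-numbered arrays form pairs, and they were not treated as pairs. Deviations from the group means correlated at 0.30, -0.01 and 0.08 for replicates 1, 2 and 3. Arrays of different number were not compared in this way, so these values do not settle the pairing. Alternatives were another normalization, a filter on dim probe sets, other variance models, array weights, replicate block, batch and left-out arrays. Figures were drawn with matplotlib 3.10.9.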

Additional observations from a re-analysis of the deposited data

How the results depend on the processing

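The differences of the 7 genes were described under quantile normalization, centring, the arrays numbered 1 and 2 only and each array left out. They moved by less than the spread between arrays except among the arrays numbered 1 and 2 only, where PDF1.2 was -0.22 and WRKY53 3.35. With single arrays left out the differences ran from -5.43 to -5.02 for THI2.2, -4.11 to -3.52 for PDF2.1, -0.07 to 0.43 for PDF1.2, 5.02 to 6.10 for AT4G33720, 3.35 to 4.06 for AT2G19970, 2.19 to 2.96 for WRKY53 and 3.14 to 3.89 for PR1. Each of the 7 genes had 1 probe set, so averaging probe sets gave nothing else. LCR67 ran from -0.94 to 2.02 with single arrays left out, and turned to -0.65, -0.15 and -0.94 without TOC1-ox replicate 1, TOC1-ox replicate 2 and WT replicate 3. BIK1 ran from -0.29 to 0.13 and PYK10 from -0.018 to 0.13 with single arrays left out, and neither passed in those fits.

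Of the 27 listed defence genes, limma called 1 higher and 0 lower with all arrays. It called 2 higher after centring and with a variance trend, 3 higher and 1 lower with a mean of at least 4, 7 and 2 with array weights, 6 higher among the arrays numbered 1 and 2 only, and 1 lower with the arrays numbered 3 as a batch. With single arrays left out it called 0 to 6 higher and 0 to 1 lower. Over all probe sets, against 245 higher and 160 lower, the counts were 152 and 96 after quantile normalization, 255 lower after centring, 519 and 333 with a mean of at least 4, 97 lower with a robust prior, 2877 and 3305 with array weights, 254 lower with the batch term, and 1170 and 1031 among the arrays numbered 1 and 2 only. With single arrays left out they ran from 5 to 1603 higher and from 3 to 1352 lower. With the replicate block limma called 0 listed genes and 0 probe sets, higher or lower. PR-1-LIKE then had an adjusted p of 0.0915 by limma. That fit and the fit of the arrays numbered 1 and 2 only both had fewer residual degrees of freedom than the main fit. The labels do not say whether arrays of the same number form pairs. Deviations from the group means correlated at 0.30, -0.01 and 0.08 for replicates 1, 2 and 3. The causes of the shifts in these counts and differences were not tested.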
